A study of Mus musculus with 15 samples.

Results

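The miR-30 family of microRNAs (miRNAs) was followed in Kupffer cells, the macrophages that reside in the liver, from lean and obese mice. Its members were all rows whose name starts with miR-30a, miR-30b, miR-30c, miR-30d or miR-30e, and 9 of the 248 listed mature miRNAs met this rule: the 5p arms of miR-30a, miR-30b, miR-30c and miR-30e, and the 3p arms miR-30a-3p, miR-30b-3p, miR-30c-1-3p, miR-30c-2-3p and miR-30e-3p. miR-30d was not analysed here. Small RNA was sequenced from C57BL/6J mice (wt) and from obese, leptin-deficient ob/ob mice at 9 weeks of age (4 wt and 3 ob/ob libraries) and at 14 weeks (4 and 4). The labels give no treatment, no allele besides ob/ob, and neither the background strain of the ob/ob mice nor whether a library came from 1 mouse or a pool, so p-values measure only the spread between these libraries, which may be technical.

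A miRNA hairpin is cut into a 5p and a 3p arm, and one of them, the guide, is usually kept in the Argonaute protein while its partner is mostly lost. A guide finds its target mRNAs mainly through its seed, bases 2 to 8. The miR-30 guides are the 5p arms, and as they share 1 seed they are expected to reach largely overlapping targets. The family is known for holding back Snai1 and Ctgf in epithelial and fibrotic settings, for promoting fat cell formation, and, in macrophages of fat tissue, for restraining Dll4 and Notch signalling. Of single members, miR-30a is known for lowering Beclin 1 in autophagy and miR-30c for lowering the lipoprotein assembly factor Mttp in liver.

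The mature sequences (RefSeq, GRCm38.p6) are shown because they set which members share targets and which can be mistaken for each other. They are written 5′ to 3′ with the seed in capitals.
miR-30a-5p: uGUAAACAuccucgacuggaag
miR-30e-5p: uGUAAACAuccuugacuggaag
miR-30c-5p: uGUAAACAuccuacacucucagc
miR-30a-3p: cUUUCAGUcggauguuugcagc
miR-30e-3p: cUUUCAGUcggauguuuacagc
miR-30c-1-3p: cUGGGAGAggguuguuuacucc
miR-30c-2-3p: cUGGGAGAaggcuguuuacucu
Of the 9 members 7 had an entry, all but miR-30b-5p and miR-30b-3p. The 3 guides shown share the seed GUAAACA, which no other listed miRNA with a sequence had (218 of the 248 listed miRNAs had one). The 4 3p arms shown fall into 2 seed groups, UUUCAGU for miR-30a-3p and miR-30e-3p and UGGGAGA for the miR-30c partners. Counting positions from the 5′ end, miR-30a-5p and miR-30e-5p differ at 1 base (C13U), and so do miR-30a-3p and miR-30e-3p (G18A). miR-30c-5p differs from miR-30a-5p at 5 of 22 bases, all outside the seed. How the authors assigned reads of such close relatives is unknown here, so their split is uncertain.

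The hairpins lie at 3 places in the genome (GENCODE vM21, GRCm38, 1-based). Mir30a (chr1:23272269-23272339, plus strand) has no annotated host gene on its strand, and Mir30c-2 (chr1:23291701-23291784, plus strand), in an exon of the long noncoding gene Gm27028, lies 19361 bases further on. Mir30c-1 (chr4:120769534-120769622) and Mir30e (chr4:120772606-120772697), both on the minus strand and 2983 bases apart, lie in an intron of Nfyc, which encodes a subunit of the transcription factor NF-Y. Mir30b (chr15:68337415-68337510, minus strand) has none either. miR-30c-5p has the same sequence from Mir30c-1 and Mir30c-2, so its value sums the output of both loci, and only the 3p arms tell the loci apart.

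Levels are given in RPM, reads scaled by the authors to a fixed total per library. All mature miRNAs are of nearly the same length, so RPM of different arms are set side by side without a length correction. How evenly arms of different sequence were captured is unknown here, so ranks and levels of arms compare reads, not molecules. The 248 listed miRNAs summed to 297668 to 358621 RPM in wt against 230785 to 250422 in ob/ob at 9 weeks, and to 147387 to 353829 and 272978 to 333502 at 14 weeks, where the lowest was wt replicate 1. The depth implied by the smallest step between values, in M reads (M for mega), was 13.4 to 22.8 for wt libraries against 25.9 to 33.9 for ob/ob at 9 weeks, and 9.08 to 39.0 against 44.1 to 98.0 at 14 weeks. Depth thus did not overlap between the genotypes at either age, and its part in the results was not tested. As the sums of listed miRNAs differed, each comparison was also made after median-ratio rescaling, which divides each library by its median ratio to the average library. It moved the median log2 fold change of all tested miRNAs from -0.51 to -0.01 at 9 weeks and from 0.20 to 0.00 at 14 weeks. Of the 3 listed macrophage miRNAs (of 4 in the list), miR-511-3p and miR-142a-5p were above 0 in all libraries, while miR-142a-3p was listed at 0 in at least 1 library of 3 of the 4 groups. miR-511-3p comes from the gene of the macrophage receptor Mrc1. At 9 weeks it was lower in ob/ob as deposited (limma log2 fold change -1.07 ± 0.24, adjusted p = 0.00984). It did not pass after rescaling (-0.56 ± 0.21, adjusted p = 0.0855), nor at 14 weeks (-0.15 ± 0.33, and -0.36 ± 0.16 rescaled). miR-142a-5p passed at neither age, at -0.51 ± 0.21 and, rescaled, 0.00 ± 0.20 at 9 weeks. At 14 weeks it was at 0.43 ± 0.26 and, rescaled, 0.21 ± 0.24.

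The 5p arms were the abundant ones. miR-30a-5p ranked from 9 to 13 among the listed miRNAs in the 15 libraries, miR-30e-5p from 14 to 20, miR-30c-5p from 18 to 32 and miR-30b-5p from 20 to 30. In wt cells of 9 weeks miR-30a-5p stood at 6555 ± 576 RPM (SD, n = 4), miR-30e-5p at 3455 ± 510, miR-30c-5p at 2512 ± 401 and miR-30b-5p at 2448 ± 386. The last 2 did not differ beyond their spread. The 3p arms were far lower, with miR-30c-2-3p at 63.3 ± 7.04 RPM and miR-30e-3p at 62.2 ± 3.72, again alike within their spread, and miR-30b-3p at 8.10 ± 3.70. In ob/ob cells the order of the guides below miR-30a-5p and miR-30e-5p stayed unresolved, with miR-30b-5p at 982 ± 436 and miR-30c-5p at 979 ± 307 RPM (n = 3) at 9 weeks and at 1341 ± 197 and 1093 ± 416 (n = 4) at 14 weeks.

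Together the 4 guides made up 4.47 ± 0.40% of the listed miRNAs in wt against 3.99 ± 0.45% in ob/ob at 9 weeks, and 4.14 ± 0.35% and 4.28 ± 0.34% at 14 weeks, with overlapping libraries at both ages. As deposited their sum was 14969 ± 673 RPM in wt against 9715 ± 1446 in ob/ob at 9 weeks, without overlap, and 11775 ± 3621 and 13463 ± 1923 at 14 weeks. After rescaling the 9-week sums were 12660 ± 1082 and 11642 ± 1427 and overlapped.

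**Figure D1:**
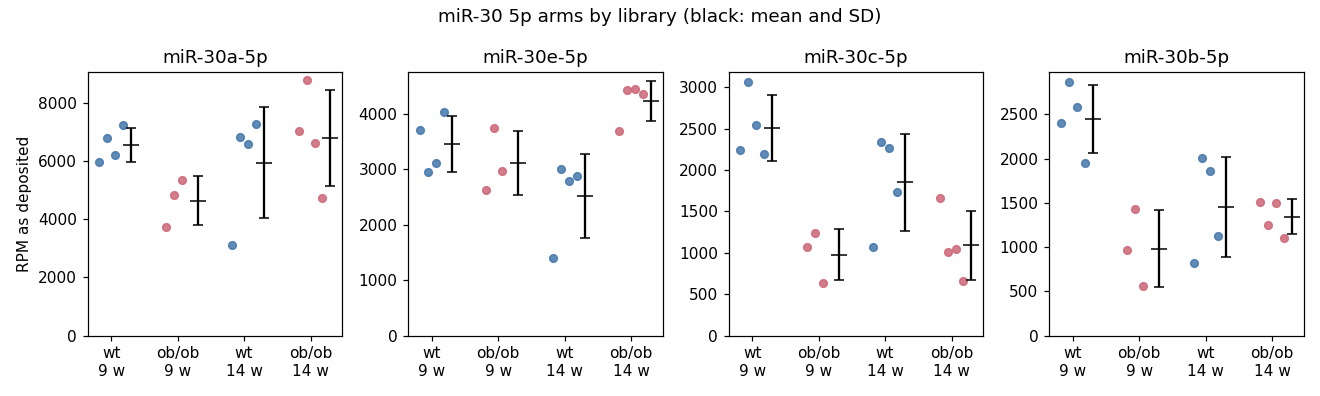
Level of each miR-30 5p arm in RPM as deposited (y axes from 0, 1 scale per panel) in every library of the 4 groups; coloured points are libraries, black marks the mean and SD. miR-30c-5p sits lower in all 3 ob/ob libraries of 9 weeks (638 to 1234) than in wt (2197 to 3065), and miR-30e-5p higher in all 4 ob/ob libraries of 14 weeks (3685 to 4444) than in wt (1397 to 3007).

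At 9 weeks as deposited, miR-30c-5p, miR-30b-5p and the partner arm miR-30c-2-3p fell in ob/ob cells to 0.39, 0.40 and 0.41 times the wt mean. None of the other members passed the test. On this scale the median log2 fold change of all tested miRNAs was itself -0.51. miR-30c-5p was at 2239, 3065, 2546 and 2197 RPM in the wt libraries and at 1065, 1234 and 638 RPM in ob/ob. All ob/ob values lay below all wt values. The log2 fold change on the log2(RPM + 0.5) scale was -1.40 ± 0.26 (SE, limma adjusted p = 0.00538), and after rescaling -0.89 ± 0.24 (adjusted p = 0.0373). miR-30c-2-3p, made only from the chromosome 1 locus, was at 62.7, 73.5, 59.2 and 58.0 RPM in wt against 23.0, 35 and 19.5 RPM in ob/ob. Again the groups were apart, with a log2 difference of -1.31 ± 0.23 (limma adjusted p = 0.00538) and -0.81 ± 0.21 after rescaling (adjusted p = 0.0343). The rescaled calls of both miR-30c arms did not survive leaving out wt replicate 2, wt replicate 3, wt replicate 4, ob/ob replicate 1 or ob/ob replicate 3, with adjusted p reaching 0.0907 for miR-30c-5p and 0.105 for miR-30c-2-3p, although the log2 fold changes stayed between -1.02 and -0.63 and between -0.99 and -0.66.

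miR-30b-5p was at 2399, 2864, 2586 and 1945 RPM in wt against 964, 1427 and 555 RPM in ob/ob at 9 weeks, also without overlap. Its log2 fold change was -1.41 ± 0.31 (limma adjusted p = 0.0102), and -0.90 ± 0.30 after rescaling, where it did not pass (adjusted p = 0.0631). The rescaled value passed without ob/ob replicate 2 (-1.16, limma adjusted p = 0.0248) and was -0.56 without ob/ob replicate 3 (adjusted p = 0.142). miR-30a-5p, the most abundant member, was at 5972, 6782, 6213 and 7252 RPM in wt against 3723, 4846 and 5351 RPM in ob/ob. These values did not overlap, but the difference of -0.51 ± 0.18 missed the threshold (adjusted p = 0.0528), equalled the median of all tested miRNAs and was close to 0 after rescaling (0.00 ± 0.18, 95% interval -0.42 to 0.42). miR-30e-5p, which differs from miR-30a-5p by 1 base, was at 3713, 2945, 3121 and 4039 RPM in wt against 2633, 3748 and 2962 RPM in ob/ob, with overlap. Its log2 fold change was -0.15 ± 0.19 as deposited and 0.36 ± 0.17 after rescaling, and neither passed (adjusted p = 0.555 and 0.174).

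Among the other 3p arms at 9 weeks, miR-30e-3p was at 57.4 to 65.6 RPM in wt against 46.0 to 49.1 in ob/ob (log2 fold change -0.39 ± 0.16, limma adjusted p = 0.0882, and 0.11 ± 0.14 after rescaling). miR-30b-3p, the rare partner of miR-30b-5p, was at 5.40 to 13.6 RPM in wt against 6.90 to 9.93 in ob/ob, where the high value was wt replicate 1. All 9 members passed the filter on low values and were tested. In all, 3 of the 9 were called lower as deposited, beside 32.4% of the 179 miRNAs tested, and 2 of 9 after rescaling, beside 10.1%. 6 of the 9 were lower in ob/ob without overlap as deposited, beside 41.3% of the tested miRNAs, and 3 of 9 after rescaling, beside 21.8%. As deposited the share of members called lower was thus near that of all miRNAs. The median log2 fold change of the 4 guides was -0.96 as deposited and -0.45 rescaled, against -0.51 and -0.01 for all tested.

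**Figure D2:**
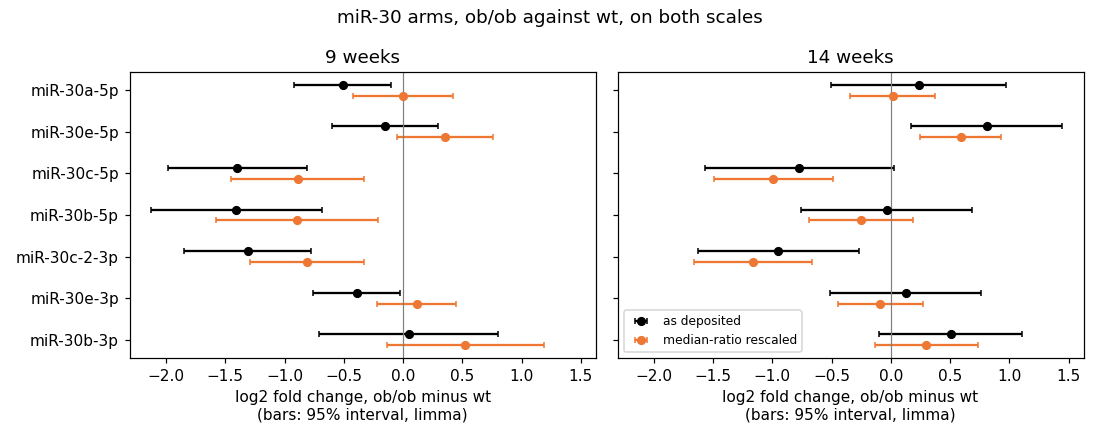
Log2 fold change of 7 miR-30 arms, ob/ob minus wt (x axis), at 9 weeks and at 14 weeks, as deposited (black) and median-ratio rescaled (orange), with 95% intervals from limma; the arms with values of 0 are left out. Both miR-30c arms lie below 0 in every case (-1.40 to -0.77), and miR-30e-5p lies above 0 at 14 weeks (0.81 and 0.59).

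At 14 weeks miR-30c-5p and miR-30c-2-3p were again lower in ob/ob and miR-30e-5p was higher. These 3 passed the test after rescaling but not as deposited. The other miR-30c arm, miR-30c-1-3p, holds values of 0 and is given no fold change. miR-30c-5p was at 1073, 2338, 2272 and 1732 RPM in wt against 1659, 1015, 1041 and 657 RPM in ob/ob. The groups overlapped at wt replicate 1, whose listed miRNAs summed lowest. The log2 fold change was -0.77 ± 0.36 as deposited (limma adjusted p = 0.164) and -0.99 ± 0.22 after rescaling (adjusted p = 0.0106), which removed the overlap. miR-30c-2-3p was at 43.8, 64.2, 68.1 and 72.3 RPM in wt against 49.0, 27.6, 32.5 and 21.9 RPM in ob/ob, with overlap at wt replicate 1 and ob/ob replicate 1. Its log2 fold change was -0.95 ± 0.30 (limma adjusted p = 0.0624) and -1.16 ± 0.22 after rescaling (adjusted p = 0.00518). The rescaled calls of both arms held without any single library, with adjusted p of at most 0.0370 and 0.0197.

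miR-30e-5p was at 1397, 3007, 2790 and 2873 RPM in wt against 3685, 4435, 4444 and 4355 RPM in ob/ob at 14 weeks. All ob/ob values lay above all wt values on both scales. The log2 fold change was 0.81 ± 0.29 as deposited (limma adjusted p = 0.0866) and 0.59 ± 0.15 after rescaling (adjusted p = 0.0197). The rescaled call did not survive leaving out wt replicate 2, wt replicate 3, ob/ob replicate 2 or ob/ob replicate 3 (adjusted p up to 0.0735), nor a correction for GC content (log2 fold change 0.38 ± 0.13, adjusted p = 0.0643). Without wt replicate 1, the library with the low sum, miR-30c-5p, miR-30c-2-3p and miR-30e-5p all passed as deposited (adjusted p = 0.0425, 0.0206 and 0.0206).

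miR-30a-5p at 14 weeks was at 3099, 6838, 6602 and 7266 RPM in wt against 7036, 8785, 6634 and 4741 RPM in ob/ob, with a log2 fold change of 0.23 ± 0.33 and, after rescaling, 0.02 ± 0.16 (95% interval -0.34 to 0.38). miR-30b-5p, called lower at 9 weeks as deposited, was at 824, 2004, 1858 and 1128 RPM in wt against 1508, 1253, 1499 and 1105 RPM in ob/ob, with full overlap (log2 fold change -0.04 ± 0.32 and -0.25 ± 0.19 rescaled, limma adjusted p = 0.954 and 0.386). miR-30e-3p, at 34.8 to 72.7 RPM in wt against 52.4 to 73.2 in ob/ob, and miR-30b-3p, at 4.63 to 9.39 and 8.97 to 11.5, did not pass either.

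As deposited 0 of the 9 members were called by limma at 14 weeks, beside 15.2% of the 171 miRNAs tested, and 2 of 9 had an unadjusted p under 0.05, miR-30c-2-3p and miR-30e-5p, beside 32.7% of all. After rescaling 2 of 9 were lower, beside 12.9% of all, and 1 of 9 was higher, beside 15.2%. As deposited only miR-30e-5p was apart between the genotypes, higher in ob/ob, beside 22.2% of all. After rescaling miR-30c-5p and miR-30c-2-3p were lower without overlap, beside 13.5%, and miR-30e-5p higher, beside 15.8%. The median log2 fold change of the 4 guides was 0.10 as deposited and -0.12 rescaled, against 0.20 and 0.00 for all tested. The libraries of 14 weeks came from lanes 1 and 2, 2 per genotype in each. In lane 1 alone, after rescaling, miR-30c-5p had a log2 fold change of -0.81, miR-30c-2-3p of -1.03 and miR-30e-5p of 0.46, and none passed (adjusted p = 0.367, 0.367 and 0.527). In lane 2 alone they had -1.18, -1.30 and 0.72 and all passed (adjusted p = 0.0146, 0.00526 and 0.0237).

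Whether the ob/ob effect differed between the ages was tested as the interaction of genotype and age over all 15 libraries. By limma 0 of 9 members passed on either scale, and 0 of all 187 miRNAs tested (0.0%). 2 of the 9, miR-30b-5p and miR-30e-5p, had an unadjusted p under 0.05 as deposited, beside 25.7% of all, and 0 did after rescaling, beside 8.56%. For miR-30b-5p the ob/ob effect was higher by 1.37 ± 0.46 at 14 than at 9 weeks as deposited (adjusted p = 0.132) and by 0.65 ± 0.35 after rescaling (adjusted p = 0.553). For miR-30e-5p the difference was 0.96 ± 0.35 and 0.24 ± 0.20 (adjusted p = 0.132 and 0.673), and for miR-30c-5p 0.62 ± 0.46 and -0.10 ± 0.34 (adjusted p = 0.381 and 0.909). The median over all tested miRNAs was 0.68 as deposited and -0.01 rescaled. Between ages within a genotype only levels are set side by side, since each age is a table of its own and lane 1 holds libraries of 14 weeks only: wt cells held 2448 ± 386 RPM of miR-30b-5p at 9 weeks and 1453 ± 569 at 14 weeks, and 3455 ± 510 and 2517 ± 752 RPM of miR-30e-5p.

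Shares of the summed guides do not depend on how a library is scaled. miR-30c-5p made up 14.2 to 19.6% of the sum in wt against 6.71 to 12.7% in ob/ob at 9 weeks, and 13.3 to 16.8% against 6.05 to 11.9% at 14 weeks. The genotypes did not overlap at either age, with means of 16.8 ± 2.33% (n = 4) and 10.1 ± 3.08% (n = 3) at 9 weeks (two-sided exact permutation p = 0.0571, the smallest this design allows) and of 15.8 ± 1.69% and 8.05 ± 2.68% (n = 4 each) at 14 weeks (exact permutation p = 0.0286, also the smallest possible). miR-30e-5p made up 23.1 ± 3.56% of the wt sum and 32.0 ± 1.17% of the ob/ob sum at 9 weeks (exact permutation p = 0.0571) and 21.4 ± 0.66% against 32.0 ± 5.98% at 14 weeks (exact permutation p = 0.0286), again without overlap. miR-30a-5p made up 43.7 ± 2.27% and 47.9 ± 7.28% at 9 weeks and 50.4 ± 3.71% and 49.9 ± 5.40% at 14 weeks (exact permutation p = 0.400 and 0.971), and miR-30b-5p 16.4 ± 2.60% and 10.003 ± 3.65%, then 12.4 ± 2.51% and 10.033 ± 1.34% (exact permutation p = 0.114 and 0.143). Adjusted over the 8 share tests the smallest p was 0.114. With these group sizes no share could have passed the threshold, since the lowest adjusted p within reach was 0.0571. Shares of 1 sum are tied to each other, so a lower share of one member means a higher share of others.

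**Figure D3:**
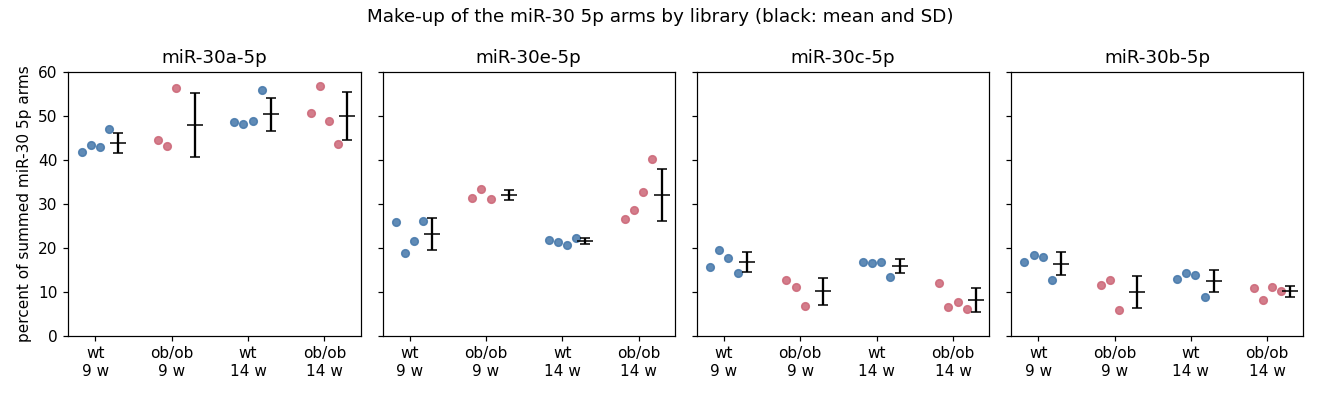
Share of each miR-30 guide in the summed 5p arms (y axis, percent, from 0) in every library of the 4 groups; points are libraries, black marks the mean and SD. The shares of miR-30c-5p in ob/ob lie below those in wt at both ages (6.05 to 12.7% against 13.3 to 19.6%), and those of miR-30e-5p lie above.

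The ratio of miR-30c-5p to miR-30e-5p, formed after the values were seen and given as a description, was 0.54 to 1.04 in wt against 0.22 to 0.40 in ob/ob at 9 weeks, and 0.60 to 0.81 and 0.15 to 0.45 at 14 weeks. Among 3p arms, miR-30c-2-3p over miR-30e-3p was 0.96 to 1.12 in wt against 0.42 to 0.71 in ob/ob at 9 weeks, and 0.99 to 1.26 and 0.42 to 0.67 at 14 weeks. miR-30c-5p over miR-30a-5p, whose hairpin shares the chromosome 1 locus with Mir30c-2, was 0.30 to 0.45 in wt against 0.12 to 0.29 in ob/ob at 9 weeks and 0.24 to 0.35 and 0.12 to 0.24 at 14 weeks, where the lowest wt and the highest ob/ob library nearly met (0.238 and 0.236).

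The log2 ratio of the 5p to the 3p arm of a hairpin is likewise nearly free of library scaling, apart from the pseudocount. For miR-30c-5p over miR-30c-2-3p it was 5.29 ± 0.12 in wt against 5.20 ± 0.26 in ob/ob at 9 weeks and 4.85 ± 0.31 and 5.02 ± 0.13 at 14 weeks, a difference within the spread of the libraries (ob/ob minus wt -0.09, 95% interval -0.52 to 0.35, and 0.17, -0.28 to 0.62). For miR-30e it was 5.77 ± 0.28 and 6.01 ± 0.21 at 9 weeks (limma adjusted p = 0.537), and 5.42 ± 0.14 and 6.10 ± 0.32 at 14 weeks, a rise of 0.68 ± 0.20 in ob/ob (adjusted p = 0.0295). The guide miR-30e-5p was thus higher at 14 weeks relative to its own partner arm. That call did not survive leaving out any one of 6 of the 8 libraries, all but wt replicate 2 and ob/ob replicate 1 (adjusted p up to 0.0816). For miR-30b the ratio was 8.22 ± 0.62 and 6.77 ± 0.47 at 9 weeks, which did not pass (difference -1.45 ± 0.40, limma adjusted p = 0.0669), and was 7.53 ± 0.56 and 6.99 ± 0.10 at 14 weeks (difference -0.54 ± 0.28, adjusted p = 0.160). It passed at 9 weeks without wt replicate 1, the library with the high miR-30b-3p (-1.72, limma adjusted p = 0.0412), and at 14 weeks without wt replicate 4 (-0.77, adjusted p = 0.0366). Of the 5 miR-30 hairpin ratios limma called 0 at 9 weeks, beside 6.82% of the 44 hairpins tested, with miR-30b alone at an unadjusted p under 0.05, beside 25.0%, and 1 at 14 weeks, beside 39.0% of 41. These 5 include miR-30a and miR-30c-1, whose 3p arms hold values of 0 and for which no ratio is given.

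**Figure D4:**
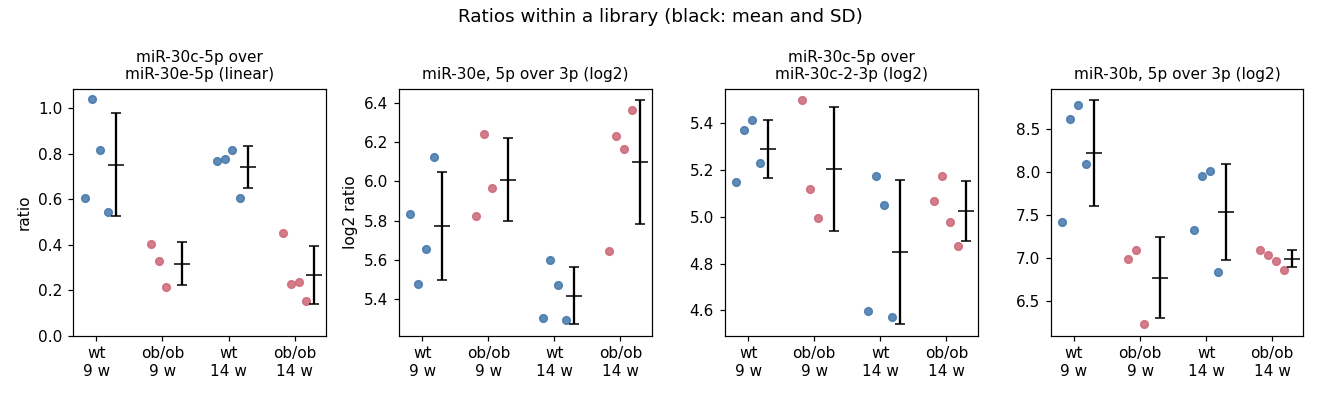
Ratios within each library by group: miR-30c-5p over miR-30e-5p on a linear axis from 0, then the log2 ratio of 5p to 3p arm for miR-30e, miR-30c-2 and miR-30b on axes that do not start at 0; points are libraries, black marks the mean and SD. The first ratio lies at 0.54 or more in every wt library and at 0.45 or less in every ob/ob library.

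miR-30a-3p, the partner of the most abundant guide, was listed at 85.6, 102, 87.7 and 80.4 RPM in wt against 60.2, 58.4 and 0 RPM in ob/ob at 9 weeks. At 14 weeks it was at 49.9, 98.0, 98.3 and 117 RPM in wt against 115, 0.02, 0 and 59.6 RPM in ob/ob. The 3 libraries at or near 0 were ob/ob replicate 3 of 9 weeks and ob/ob replicates 2 and 3 of 14 weeks, in which the guide miR-30a-5p stood at 5351, 8785 and 6634 RPM and miR-30e-3p, 1 base apart from miR-30a-3p, at 46.9, 58.6 and 61.5 RPM. An exact 0 can be a failed estimate, so no mean or fold is given. By limma miR-30a-3p missed the threshold at both ages (adjusted p = 0.257 and 0.265 as deposited). miR-30c-1-3p, the partner arm from the Nfyc intron, was listed at 0 in 5 of the 15 libraries, 3 of wt and 2 of ob/ob, and at 6.30 to 8.08 RPM in the other 10. The values above 0 overlapped between the genotypes at both ages, and all lay below the lowest value of miR-30c-2-3p (19.5 RPM).

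**Figure D5:**
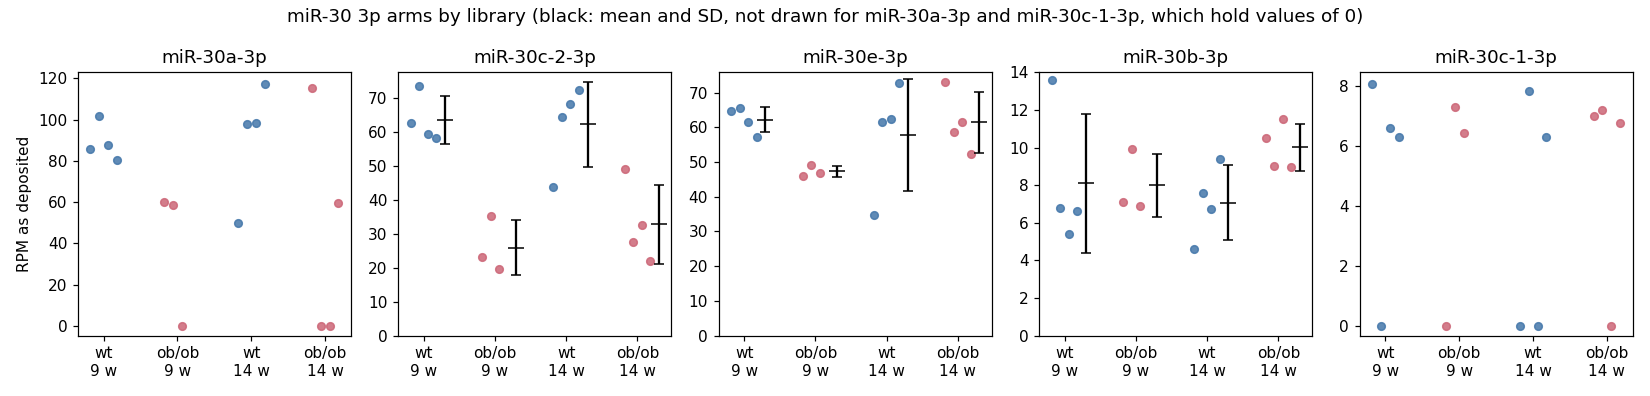
Level of each miR-30 3p arm in RPM as deposited in every library of the 4 groups, 1 scale per panel; points are libraries, and black marks the mean and SD except for miR-30a-3p and miR-30c-1-3p, which hold values of 0. miR-30c-2-3p lies lower in ob/ob, and miR-30a-3p is at or near 0 in 3 ob/ob libraries and at 49.9 or more elsewhere.

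Other families of guide arms gave the following counts, from lists chosen with earlier results of these data known. At 9 weeks 6 of 9 let-7 guides, 2 of 3 miR-29, 1 of 2 miR-26, 2 of 6 miR-10 family guides and 2 of 4 miR-30 guides were called lower by limma as deposited, beside 32.4% of all tested. After rescaling 3, 0, 0, 1 and 1 were lower, beside 10.1%, and 1 let-7 guide was higher, beside 11.2%. At 14 weeks none of these was called as deposited, beside 15.2% of all. After rescaling 6 let-7 and 2 miR-10 family guides were lower, beside 12.9%, and 1 miR-29 guide higher, beside 15.2%, and the miR-30 guides had 1 in each direction.

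The miRNAs whose pattern was most like that of the summed guides, by Pearson's r of log2(RPM + 0.5) over the 15 libraries after rescaling, were miR-186-5p (r = 0.59), miR-101a-3p (0.54), miR-188-5p (0.52), miR-29c-3p (0.51) and miR-455-5p (0.46), among 104 with a mean of at least 10 RPM and no 0. As deposited, where all libraries share the scale of their own sum, r was 0.96, 0.93, 0.85, 0.93 and 0.84. These values are a description.

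Markers of other cells differed between the genotypes too. The summed hepatocyte miRNAs (3 of 4 listed, none at 0) reached 1100 to 2222 RPM for wt and 3966 to 5524 for ob/ob at 9 weeks, and 1099 to 1688 and 3168 to 6898 at 14 weeks. By limma 2 of these 3 were higher at 9 weeks as deposited, beside 9 of all 179 tested, and 3 after rescaling, beside 20. At 14 weeks 2 were higher as deposited, beside 20 of all 171 tested, and 1 after rescaling, beside 26. miR-122-5p was not called at 14 weeks (log2 fold change 0.57 ± 0.55, limma adjusted p = 0.551, and 0.35 ± 0.76 rescaled, adjusted p = 0.774). The erythroid miR-144-5p stood at 0.52 to 1.49 RPM for wt and 14.7 to 21.7 for ob/ob at 9 weeks and at 0.33 to 0.97 and 11.6 to 32.4 at 14 weeks, a rise called at both ages on both scales. The 2 endothelial miR-126a arms summed to 42296 to 59286 and 18455 to 45923 RPM, then to 10833 to 63153 and 33631 to 55779, with miR-126a-3p listed at 0 in at least 1 ob/ob library of 14 weeks and called lower at 9 weeks as deposited only. The 5 stellate and mesenchymal miRNAs summed to 1380 to 1800 and 934 to 1567, then to 495 to 1860 and 1347 to 2668. Of the 4 tested, 2 were lower at 9 weeks as deposited, beside 32.4% of all tested, and 1 after rescaling, beside 10.1%. At 14 weeks 1 was higher after rescaling, beside 15.2%. miR-199a-5p was at 0 in some library of 3 groups and miR-145a-5p in some ob/ob library of 9 weeks. Neither of the 2 lymphocyte miRNAs was called, at sums of 4854 to 8082 RPM over all libraries. Of 3 biliary and epithelial miRNAs, at sums of 21.5 to 101.8 RPM, miR-141-3p was called higher at 14 weeks on both scales and at 9 weeks after rescaling. The part of such cells in the miR-30 differences was not tested. Fewer cells of a type and less of a miRNA per cell cannot be told apart in such bulk samples.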

How the data were processed

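Small RNA libraries of Kupffer cells were prepared by a TruSeq protocol and run on an Illumina HiSeq instrument, per the labels' protocols. The submitters' processing notes name bcl2fastq, cutadapt, GRCm38.p5 and mm10. Aligner, counter and annotation are not given here. Deposited values, 1 table per age, were taken as RPM made by the authors. This unit was inferred from the values, whose low entries are whole multiples of 1 step per library (within 0.1 reads), read as 1 read. Which reads form the denominator is unknown here, and PCR reads are not independent molecules.

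log2(RPM + 0.5) of all miRNAs with at least 1 RPM in at least 3 libraries (9 weeks, interaction) or 4 (14 weeks) entered limma 3.58.1 (R 4.3.3, trend, robust, Benjamini-Hochberg, threshold 0.05), as deposited and median-ratio rescaled (on miRNAs above 0 throughout that average 5 RPM or more). Arm ratios were tested with limma over all hairpins, without trend. Where leaving out a library or taking a single lane made groups smaller, the filter required no more libraries than the smallest group held. The set tested and adjusted over can thus differ in those alternatives. Shares were tested by exact permutation (scipy 1.17.1, smaller tail doubled). The limma test of members was checked only on simulated data with independent noise, no values of 0 and rescaled libraries. The planted effects were larger than those of any miR-30 member called, so effects of their size were not checked. All 9 members, the marker lists and the 5 most similar miRNAs were named. The members and lists were chosen with earlier results of these data known. Alternatives were scaling, GC correction, pseudocount, filter, lane, block and leaving out libraries.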

Additional observations from a re-analysis of the deposited data

Results flagged for a closer look

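In 54 checks of groups of 4 libraries, over the levels, shares and arm ratios of the miR-30 members, 8 values stood further from the other 3 than Dixon's critical gap allows. They come from 5 libraries, and levels, sums and shares of 1 library are linked. Chance alone gives about 1 in 20.

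Of the wt libraries of 14 weeks, replicate 1 was lowest for miR-30a-5p at 3099 RPM (others 6602 to 7266), for miR-30e-5p at 1397 RPM (others 2790 to 3007) and for the summed guides at 6393 RPM. This is the library whose listed miRNAs sum lowest. Replicate 4 of the same group had the highest share of miR-30a-5p among the guides, 55.9% (others 48.2 to 48.8%), and the lowest of miR-30c-5p, 13.3% (others 16.5 to 16.8%).

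miR-30b-3p was at 13.6 RPM in wt replicate 1 of 9 weeks (others 5.40 to 6.78). Among ob/ob libraries of 14 weeks, miR-30e-5p was lowest in replicate 1 at 3685 RPM (others 4355 to 4444), and miR-30c-1-3p was listed at 0 in replicate 3 (others 6.77 to 7.22).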

How the results depend on the processing

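The counts of members called did not move by over 1.5 times with another pseudocount, filter or limma setting. At 14 weeks, instead of 0 as deposited, 3 members were called after rescaling, 2 with rescaling and GC correction, and 3 in lane 2 alone, while lane 1 alone gave 0 on both scales. Among the log2 fold changes of miR-30 members that the report prints, some changed sign, none of them called. At 9 weeks these were miR-30e-3p (0.11 rescaled, 0.084 with GC correction) and miR-30e-5p (0.36 and 0.23). At 14 weeks they were miR-30e-3p (-0.090, -0.13, and -0.24 in lane 2), miR-30a-5p (-0.024 with GC correction, -0.30 in lane 2) and miR-30b-5p (0.10 in lane 1). The interaction of miR-30c-5p turned too (-0.10 rescaled, -0.16 with GC correction). Of the miR-30 interactions not printed elsewhere, those of miR-30b-3p (0.46 and -0.22 rescaled), miR-30c-2-3p (0.36 and -0.35) and miR-30e-3p (0.52 and -0.20) turned as well. That of miR-30a-5p was 0.74 as deposited and -0.0009 with GC correction. miR-30b had no sequence for the GC correction. The causes were not tested.

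Leaving out 1 library at a time gave 3 to 4 members called at 9 weeks as deposited, and 0 to 3 rescaled. Without wt replicate 1 of 9 weeks, 1 of the 3 rescaled calls was higher in ob/ob. It was not miR-30e-5p (limma adjusted p = 0.197). At 14 weeks 0 to 3 were called (rescaled 2 to 3, as deposited 3 without wt replicate 1 and 1 without ob/ob replicate 1). The interaction gave 0 to 0, and 0 to 1 arm ratios were called at each age. For shares the count is 0 by design, as none could reach the threshold. Signs changed for miR-30b-3p at 9 weeks (-0.11 to 0.31), at 14 weeks for miR-30a-5p (-0.055 to 0.40), miR-30b-5p (-0.28 to 0.15) and miR-30e-3p (-0.10 to 0.25), for the miR-30c-2 arm ratio at 9 weeks (-0.23 to 0.018), for the share of miR-30a-5p (-0.0077 to 6.61 points at 9 weeks, -2.67 to 1.68 at 14 weeks) and for the rescaled interaction of miR-30c-5p (-0.35 to 0.060). Leaving shares aside, of 511 values of single members and arm ratios under all alternatives, 441 kept their direction and side of the threshold.

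Deviations of same-numbered replicates correlated at -0.305 to 0.258 over 3 pairs at 9 weeks. At 14 weeks the range was -0.295 to 0.365 over 4 pairs, which also share a lane. Different-numbered replicates ranged more widely, from -0.638 to 0.457 at 9 weeks and from -0.508 to 0.506 at 14 weeks. So few same-numbered pairs cannot show whether such replicates are paired, and the main tests did not pair them. With the replicate block 3 members were called at 9 weeks and 0 at 14 weeks as deposited, and 0 and 3 after rescaling. With it miR-30b-3p at 9 weeks was at -0.013, and 2 arm ratios were called at 14 weeks instead of 1. The added call was a lower ratio for miR-30c-1, whose 3p arm holds values of 0, so it is not read as a change. The rescaled analyses without single libraries, by lane and with the block were chosen after seeing the data.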
